A study of Danio rerio with 6 samples.

Results

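The genes described here belong to the unfolded protein response and the integrated stress response. Of 23745 genes in the deposited table, 10 were chosen by symbol, and all 10 were found and passed the filter on low counts. They were taken as 3 arms. The ATF4 arm holds atf4a, atf4b, ddit3, asns and chac1, the XBP1 arm holds xbp1, and the ATF6 arm holds atf6, hspa5, hsp90b1 and pdia4.

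When unfolded proteins build up in the endoplasmic reticulum (ER), sensors in its membrane, PERK, IRE1 and ATF6, change gene expression. PERK, like the other kinases of translation factor eIF2α, slows protein synthesis while the transcription factor ATF4 is made, and ATF4 then switches on genes of amino acid supply and of the stress factor CHOP. IRE1 splices the mRNA of xbp1, and ATF6 is cut by proteases in the Golgi to release a factor that raises ER chaperones. Hepatocytes secrete most plasma proteins and carry a large ER. Gene-level counts do not show the splicing of xbp1, the cleavage of Atf6 or the translation of ATF4.

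The study addressed early fatty liver, and sequenced poly(A) RNA of hepatocytes from zebrafish larvae 6 days old, with 2000 fluorescence-sorted cells a sample. The 3 CTL samples came from Tg(fabp10a:eGFP) larvae, in which a liver promoter drives a green reporter, and both groups carry this reporter. The 3 lcat OE samples came from larvae that also carry fabp10a:lcat-T2A-mCherry, so that the same promoter drives lcat, the enzyme that esterifies cholesterol on lipoproteins, together with a red reporter. No group carries the red reporter alone, so lcat and the red reporter cannot be told apart, and the labels do not say whether replicates came from separate clutches or sorts; the p-values may then measure technical spread.

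The libraries held 23336591 to 24890856 counts. Levels in CPM are counts scaled by library size and by 1 normalization factor per library (TMM). This factor was 0.8685 in lcat OE 3 and 0.9976 to 1.063 in the other libraries, which raises the CPM of lcat OE 3. The overexpressed gene checked the labels: lcat had 120 to 149 CPM in CTL. In lcat OE it rose to between 1958 and 3255 CPM, by 4.24 on the log2 scale (SE 0.20, n = 3 each, edgeR adjusted p = 1.35e-06). Markers of hepatocytes held 27.1% to 28.5% of counts in CTL and 31.8% to 32.6% in lcat OE. Of 24 tested, 3 were higher (tfa, apoa2 and apom), 1 was lower (fgb) and 20 were not called, with a median log2 fold change of 0.14. The gene apoa2 alone held 7523493 counts in CTL and 9708099 in lcat OE in all. Over all genes tested, 16.3% were higher and 16.3% lower by the edgeR test described below. Markers of other cell types also differed. Epidermal markers took 0.0844% to 0.164% of counts in CTL and 0.965% to 1.68% in lcat OE, with 18 of 25 higher and 3 lower. Exocrine pancreas markers took 0.0856% to 0.212% and 0.00535% to 0.0281%, with 0 of 19 higher and 9 lower. Pigment cell markers, of which 0 of 12 were higher and 9 lower, took 0.0356% to 0.0659% and 0.0184% to 0.0212%, and aox5 had no count in any lcat OE library. Macrophage markers took 0.00227% to 0.00355% and 0.00395% to 0.00464%, with 5 of 9 higher and 1 lower. Of 17 macrophage markers, only these 9 had enough counts to be tested, and csf1ra stands in both the pigment cell and the macrophage list. In bulk RNA, fewer cells of a type and less RNA per cell cannot be told apart.

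The stress response genes did not move together. The genes of the factors atf4a, atf4b, ddit3 and xbp1 fell in lcat OE, while chac1 and asns rose. The 3 ER chaperone genes hspa5, hsp90b1 and pdia4 did not pass the test. Their levels differed widely between libraries of the same group, in CTL for hspa5 and in both groups for hsp90b1 and pdia4. With edgeR's quasi-likelihood test and Benjamini-Hochberg adjustment over all 14096 genes tested, 2 of the 10 were higher and 4 lower in lcat OE, where 16.3% of all genes rose and 16.3% fell, 32.6% in all. The higher count was 1 without CTL 3, lcat OE 1 or lcat OE 2 and 3 without lcat OE 3. The gene hspa5 was lower as well without CTL 1, with DESeq2, and without both CTL 1 and lcat OE 3. With limma on log2(TPM + 1), where TPM is the deposited level per transcript length, scaled to 1 total in every library, 1 was higher and 4 were lower, against 9.53% and 21.5% of all genes. Of all calls, 49.9% were upward in the edgeR fit and 30.8% on this scale; with library totals the share was 38.8% and on log2(FPKM + 1) 40.1%. The CPM values of the 2 groups did not overlap for 7 of the 10, against 47.7% of all genes tested. For asns and atf6, among these 7, the groups overlapped in TPM. The share of all genes that do not overlap in TPM was not counted. The median log2 fold change was -0.45 over the 10 and -0.02 over all genes tested.

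**Figure D1:**
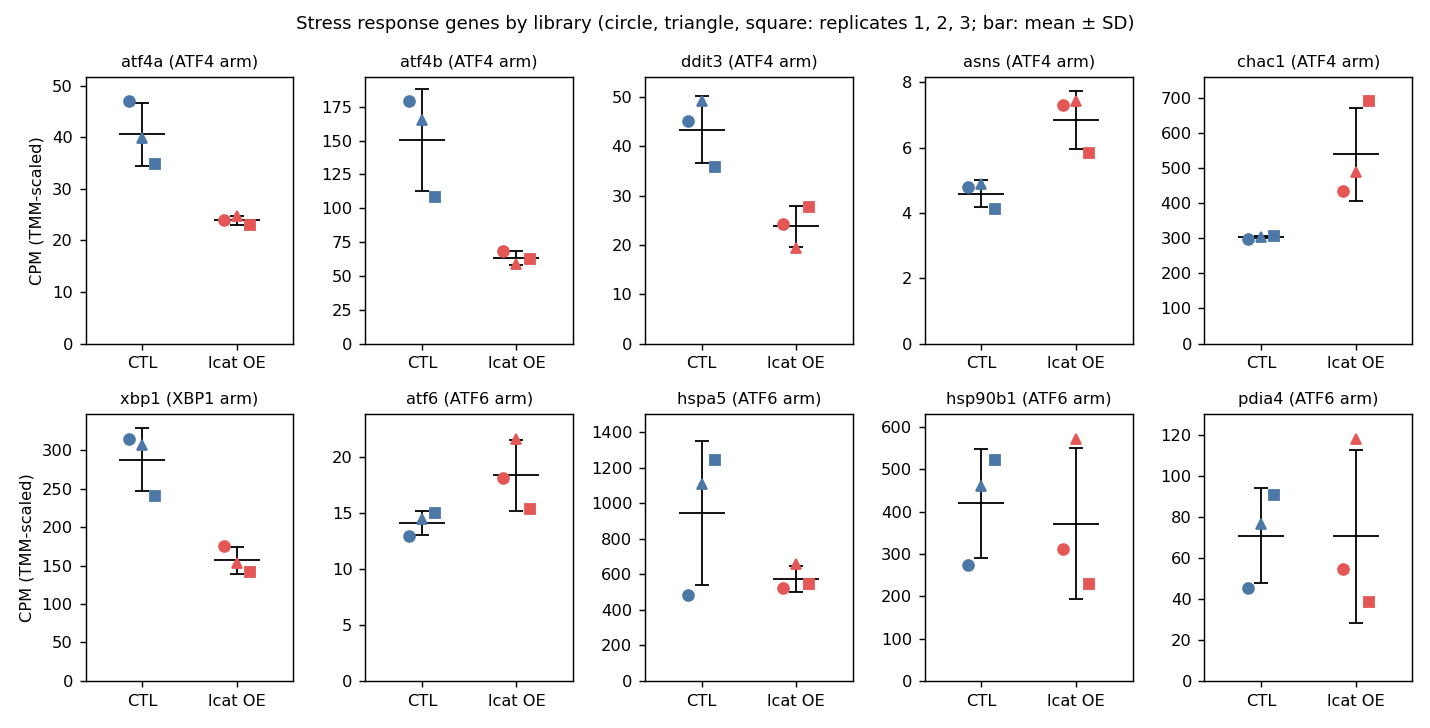
CPM (TMM-scaled, linear axes from 0) of the 10 stress response genes in each of the 3 CTL and 3 lcat OE libraries. Points are libraries, with circle, triangle and square for replicates 1, 2 and 3, and bars give the mean and SD; the groups are apart for atf4a, atf4b, ddit3, asns, chac1, xbp1 and atf6 and overlap for hspa5, hsp90b1 and pdia4.

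In the ATF4 arm, the pair of zebrafish genes for the transcription factor ATF4 both fell. In CTL 1 to 3, atf4a (NCBI gene 406514) had 47.0, 39.9 and 34.9 CPM, and in lcat OE 1 to 3 it had 24.0, 24.7 and 23.0 CPM. All 3 lcat OE libraries lay below the lowest CTL library and close to each other. The fall of atf4a was 1.7-fold (log2 fold change -0.76, SE 0.13, n = 3 each, edgeR adjusted p = 0.00141). The second gene, atf4b (NCBI gene 556410), had 179, 165 and 108 CPM in CTL and 68.7, 58.5 and 62.6 CPM in lcat OE. Its groups did not overlap either, and CTL 3 was the CTL library nearest to lcat OE. The fall of atf4b was 2.38-fold (log2 fold change -1.25, SE 0.18, n = 3 each, edgeR adjusted p = 0.000731), the largest change among the 10 genes.

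Per transcript length, in TPM, atf4b was the more abundant of the pair in every library. The ratio of atf4b to atf4a on the TPM scale was 2.69, 2.94 and 2.19 in CTL and 2, 1.65 and 1.91 in lcat OE. The ratio was lower in all 3 lcat OE libraries, and the two-sided exact permutation p was 0.1 (adjusted p = 0.233 over 7 ratios chosen after the values were seen), the smallest that 3 against 3 samples can give.

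The gene ddit3 (NCBI gene 561924) encodes CHOP, a transcription factor of prolonged ER stress that ATF4 induces. It had 45.1, 49.1 and 35.8 CPM in CTL and 24.2, 19.4 and 27.6 CPM in lcat OE. The highest lcat OE library stayed below the lowest CTL library. The fall was 1.83-fold (log2 fold change -0.87, SE 0.16, n = 3 each, edgeR adjusted p = 0.00228).

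The genes chac1 and asns, known in mammals as targets of ATF4, went the other way. The gene chac1 (NCBI gene 563855) encodes an enzyme that breaks down glutathione. It had 299, 304 and 306 CPM in CTL and 436, 490 and 690 CPM in lcat OE. The CTL libraries hardly differed: the SD of log2 CPM was 0.02 in CTL, lower than for nearly every gene of at least 10 CPM, and 0.34 in lcat OE, where lcat OE 3 was highest. The rise was 1.78-fold (log2 fold change 0.83, SE 0.16, n = 3 each, edgeR adjusted p = 0.00308).

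On the TPM scale, the level of chac1 relative to atf4b was 2.25, 2.48 and 3.83 in CTL and 8.55, 11.3 and 14.9 in lcat OE. Relative to ddit3 it was 6.36, 6.03 and 8.38 in CTL and 17.8, 25.3 and 24.6 in lcat OE. Both ratios were higher in all 3 lcat OE libraries than in any CTL library. This follows from the levels, since in TPM chac1 was higher and atf4b and ddit3 were lower in every lcat OE library. The two-sided exact permutation p of 0.1 for each (adjusted p = 0.233), the smallest the design allows, therefore adds no further evidence.

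The gene asns (NCBI gene 394138) encodes asparagine synthetase and was the least abundant of the 10 per length. It had 4.79, 4.88 and 4.11 CPM in CTL and 7.32, 7.42 and 5.84 CPM in lcat OE. The groups did not overlap in CPM, while in TPM lcat OE 3 and CTL 1 both stood at 0.74, below CTL 2. The rise was 1.49-fold (log2 fold change 0.58, SE 0.17, n = 3 each, edgeR adjusted p = 0.021). This call was lost with library totals, on deposited TPM or FPKM, and without CTL 3, lcat OE 1 or lcat OE 2, with an adjusted p of 0.0114 to 0.272 over 17 alternatives. The deposited counts of asns were not whole in any library, while those of the other 9 genes were whole in all 6 (tolerance 0), as happens where reads are divided between rows, so the asns level is uncertain to that extent.

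In the XBP1 arm, xbp1 (NCBI gene 140614) encodes a transcription factor of ER expansion and of the breakdown of misfolded ER proteins. It had 315, 307 and 241 CPM in CTL and 176, 153 and 142 CPM in lcat OE. Every lcat OE library was below every CTL library. The fall was 1.83-fold (log2 fold change -0.87, SE 0.14, n = 3 each, edgeR adjusted p = 0.000917).

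In the ATF6 arm, no gene passed the test. The gene atf6 (NCBI gene 558071), which encodes the sensor itself, had 12.9, 14.4 and 15.0 CPM in CTL and 18.1, 21.6 and 15.3 CPM in lcat OE. The groups did not overlap in CPM, but lcat OE 3 lay just above CTL 3. In TPM they overlapped, with lcat OE 3 (6.09) below CTL 1 (6.27). The log2 fold change was 0.38 (SE 0.14, 95% interval 0.06 to 0.70, n = 3 each), with an unadjusted p of 0.0241 and an edgeR adjusted p of 0.0672. It passed without lcat OE 3, with an adjusted p of 0.0165, and without both CTL 1 and lcat OE 3, with 0.0425 (0.0165 to 0.514 over 17 alternatives).

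The most abundant chaperone gene was hspa5 (NCBI gene 378848), which encodes BiP, the Hsp70 of the ER that binds unfolded proteins and holds the stress sensors inactive. It had 482, 1111 and 1243 CPM in CTL and 521, 660 and 545 CPM in lcat OE. In CPM, CTL 1 lay below all 3 lcat OE libraries, while CTL 2 and CTL 3 lay far above them. In TPM, CTL 1 (193) lay above lcat OE 3 (179). The log2 fold change was -0.72 (SE 0.35, 95% interval -1.59 to 0.15, n = 3 each, edgeR adjusted p = 0.181). Without CTL 1 it was -1.03 with an adjusted p of 0.00068, it also passed without both CTL 1 and lcat OE 3, and DESeq2 called it with all 6 libraries (adjusted p = 0.0355), within 0.000537 to 0.414 over 17 alternatives.

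The gene hsp90b1 (NCBI gene 386590) encodes GRP94, the Hsp90 of the ER. It had 274, 461 and 522 CPM in CTL and 312, 572 and 230 CPM in lcat OE. The groups overlapped fully, with the lowest and the highest value both in lcat OE. The log2 fold change was -0.17 (SE 0.42, n = 3 each, edgeR adjusted p = 0.792), with a 95% interval of -1.24 to 0.89 that leaves room for a change in either direction.

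The gene pdia4 (NCBI gene 554998) encodes ERp72, a protein disulfide isomerase that forms and rearranges disulfide bonds. It had 45.2, 76.3 and 90.4 CPM in CTL and 54.7, 118 and 38.4 CPM in lcat OE. The group means were alike, at 70.7 ± 23.2 and 70.5 ± 42.3 CPM (SD, n = 3 each). The 95% interval of the log2 fold change, -1.32 to 1.31, was the widest of the 10 (edgeR adjusted p = 0.997).

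**Figure D2:**
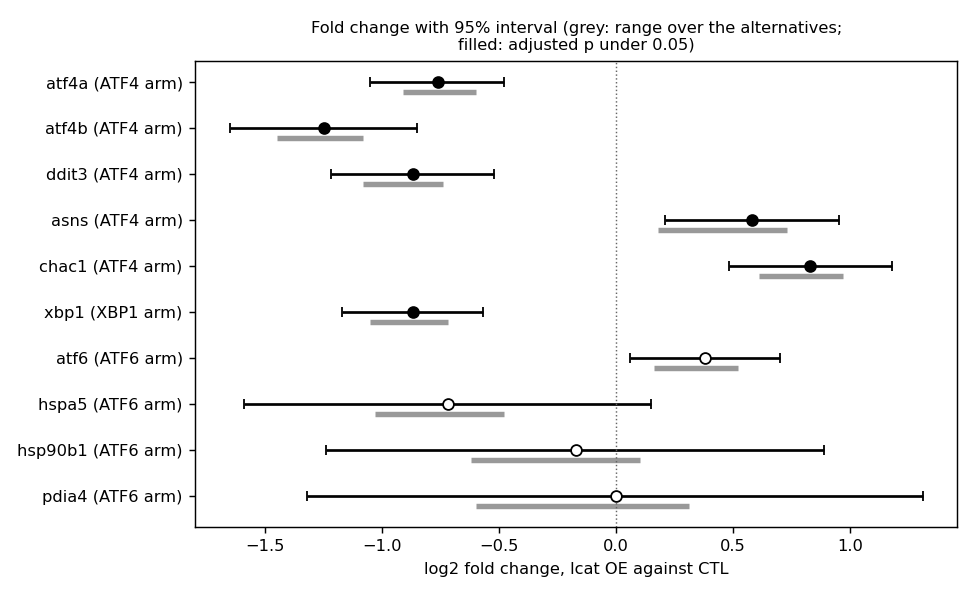
Log2 fold change of lcat OE against CTL for the 10 genes, with the 95% interval of the edgeR fit as a black bar and the range over 17 alternatives as a grey bar; filled points have an adjusted p under 0.05. The black intervals of hspa5, hsp90b1 and pdia4 cross 0. The grey bars of atf4a, atf4b, ddit3, xbp1 and hspa5 stay below 0, those of asns, chac1 and atf6 stay above 0, and those of hsp90b1 and pdia4 cross it.

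The 3 chaperone genes ranked CTL 1, CTL 2 and CTL 3 in the same order. Within lcat OE, hspa5 was lowest in lcat OE 1 in CPM and the others in lcat OE 3. In TPM, hspa5 was lowest in lcat OE 3 too, with 206, 250 and 179 in lcat OE 1 to 3. The SD of log2 CPM in CTL was 0.75 for hspa5, 0.49 for hsp90b1 and 0.52 for pdia4, larger than for 98.3%, 95.5% and 95.9% of genes with a mean of at least 10 CPM. In lcat OE it was 0.18 for hspa5, 0.67 for hsp90b1 and 0.83 for pdia4. All 4 genes of the ATF6 arm were lowest in CTL 1 within CTL and highest in lcat OE 2 within lcat OE. Over all genes tested, 34.1% were lowest in CTL 1 and 31.6% highest in lcat OE 2.

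Among 31 tested genes in the list of ATF6 control and ER folding, 25 (80.6%) were highest in lcat OE 2 within their group. In this list 21 (67.7%) were lowest in lcat OE 3, where 35.4% of all genes tested were. Within CTL, 13 (41.9%) were lowest in CTL 1, against 34.1% of all genes tested. In lists described below, 59.4% of IRE1 and ER-associated degradation genes and 55% of tRNA synthetases were highest in lcat OE 2. The sensors had 30.8%, the ATF4 and CHOP partners 0% and the ATF4 targets 18.5%. Genes chosen after their values were seen show the pattern in lcat OE. The oxidoreductase gene pdia6 had 46.4, 94.2 and 38.2 CPM in lcat OE 1 to 3, and the calreticulin gene calr3b had 72.0, 121 and 50.1 CPM. In CTL 1 to 3, pdia6 had 21.7, 32.7 and 34.4 CPM and calr3b had 52.7, 51.2 and 52.0 CPM. The spread in CTL was thus seen for pdia6 and not for calr3b. It was also seen for hyou1 (75.5, 101 and 118 CPM in CTL 1 to 3), manf (16.5, 25.3 and 36.4) and creld2 (3.35, 7.51 and 8.02). Other genes of this list went the other way, with ppib at 193, 162 and 147 CPM and prkcsh at 68.0, 62.9 and 56.8 CPM. These examples, too, were chosen after their values were seen. Neither pdia6 nor calr3b was called (edgeR adjusted p = 0.111 and 0.154). DESeq2 called both, pdia6 also passed with the replicate block (0.00342 to 0.222 over 17 alternatives), and calr3b also passed without lcat OE 3 and without both CTL 1 and lcat OE 3 (0.0106 to 0.443). On the TPM scale, the ratio of hsp90b1 to pdia4 was 5.20 ± 0.144 in CTL and 4.80 ± 0.524 in lcat OE (SD, n = 3 each). The ratios of hspa5 to these genes varied more: hspa5 over hsp90b1 was 2.07, 2.84 and 2.81 in CTL and 1.97, 1.36 and 2.8 in lcat OE, and hspa5 over pdia4 was 11, 15 and 14.1 in CTL and 9.8, 5.73 and 14.6 in lcat OE. The ratio of xbp1 to hspa5 ranged from 0.284 to 0.957 in CTL.

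**Figure D3:**
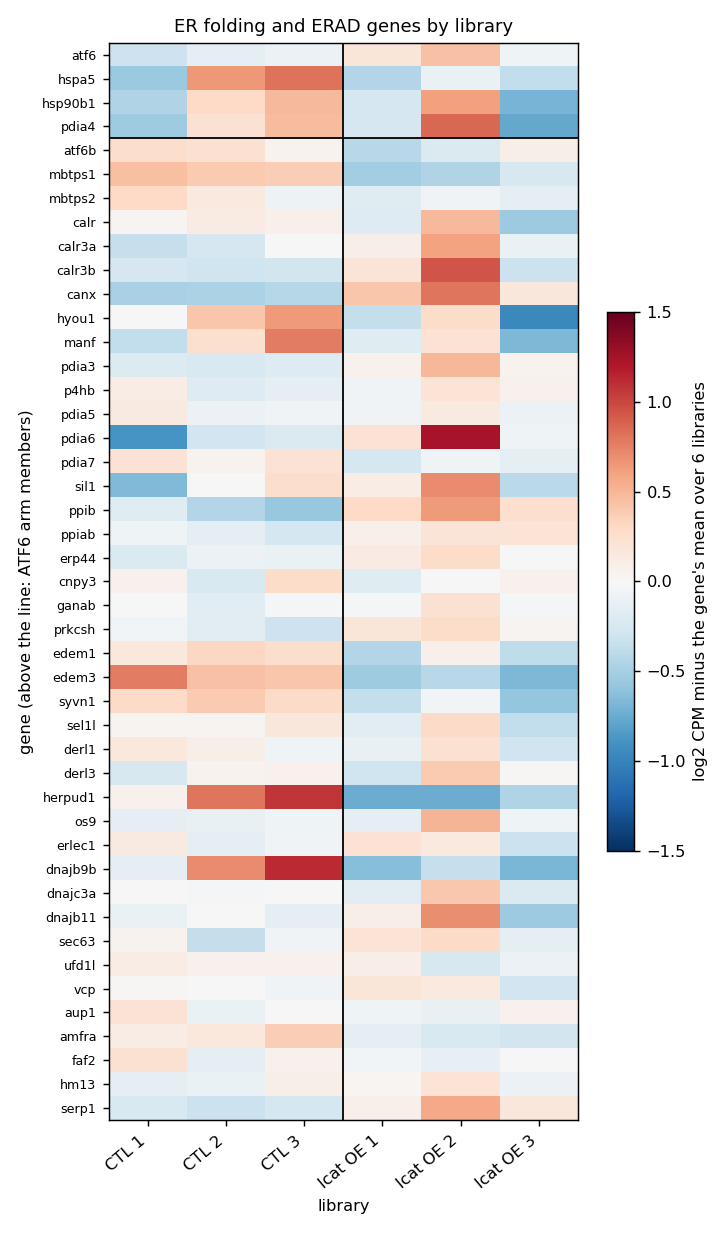
Log2 CPM minus the gene's mean over the 6 libraries (colour), with genes as rows and libraries as columns. The 45 genes come from the ATF6 arm and the lists of ER folding and ER-associated degradation, with a mean of at least 10 CPM. Red is above and blue below the gene's mean: CTL 1 is blue for hspa5, hsp90b1 and pdia4, lcat OE 2 is red for most folding genes, and herpud1 and dnajb9b are blue in all 3 lcat OE libraries.

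The order of levels per length differed between the groups. In CTL, hspa5 (398 ± 179 TPM) was first, followed by chac1 (205 ± 10.3), xbp1 (176 ± 24.5) and hsp90b1 (149 ± 49.5), and the ranges of these neighbours overlapped (SD, n = 3 each). Below them stood atf4b with 75.6 ± 18.3 TPM, apart from its neighbours. The genes ddit3 (30.3 ± 5.26), pdia4 (28.9 ± 10.1) and atf4a (28.7 ± 3.55) overlapped, and atf6 (7.17 ± 0.78) and asns (0.74 ± 0.08) were lowest.

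In lcat OE, chac1 was first with 317 ± 45.5 TPM and its range lay above that of hspa5 (212 ± 36.1 TPM; SD, n = 3 each). Next came hsp90b1 (118 ± 61.1), which overlapped with hspa5 and with xbp1 (85.2 ± 17.1). Of atf4b (28.1 ± 4.23), pdia4 (25.7 ± 16.2), atf4a (15.2 ± 1.92) and ddit3 (14.2 ± 2.01), each overlapped with the next. The range of atf4b lay below that of xbp1, and that of ddit3 above that of atf6. The lowest were again atf6 (8.26 ± 1.98) and asns (0.983 ± 0.211).

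Genes around these arms were read from 6 lists with 142 names, of which 139 were matched and 131 tested. Of these, 15 rose and 19 fell. The lists are described by counts and medians, beside 16.3% up, 16.3% down and a median of -0.02 for all genes.

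Of 13 sensors and controls of the integrated stress response, 0 were higher and 2 lower, with a median log2 fold change of -0.10. The kinase gene eif2ak1 (HRI, the heme-regulated eIF2α kinase) fell from 11.3 ± 0.357 to 6.63 ± 0.373 CPM (SD, n = 3 each; -0.77, SE 0.13, edgeR adjusted p = 0.0015). The gene ppp1r15a (GADD34), which targets a phosphatase to eIF2α, had 204, 281 and 350 CPM in CTL and 139, 136 and 206 CPM in lcat OE (-0.80, SE 0.23, edgeR adjusted p = 0.0318). Its groups overlapped slightly, and the call was lost with no filter and without CTL 2, CTL 3, lcat OE 1 or lcat OE 2 (0.000112 to 0.116 over 17 alternatives). The PERK gene eif2ak3 had 5.55 ± 0.521 and 3.98 ± 0.452 CPM (-0.48, edgeR adjusted p = 0.0527, 0.0286 to 0.162 over the alternatives), and passed with library totals, at least 5 CPM or TPM. The other kinases did not pass, with eif2ak2 (PKR) at -0.17 (95% interval -1.20 to 0.86) and eif2ak4 (GCN2) at -0.04 (-0.37 to 0.29), nor did ppp1r15b at -0.51 (-1.57 to 0.55). The count of lower genes in this list was 1 without CTL 2, CTL 3, lcat OE 1 or lcat OE 2 and 4 with library totals or on TPM. Of all 14096 genes tested, 2639 were lower with library totals and 3024 on log2(TPM + 1).

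Of 8 tested partners of ATF4 and CHOP, mostly transcription factors of the same leucine zipper class, 1 was higher and 5 lower, with a median of -0.68. The gene atf3, a stress-induced repressor, fell from 236 ± 30.8 to 87.8 ± 28.0 CPM (SD, n = 3 each; -1.43, SE 0.22, edgeR adjusted p = 0.00167), and jdp2b fell from 624 ± 108 to 210 ± 64.1 CPM (-1.57, SE 0.23, 0.00144). The atf3 call was lost without both CTL 1 and lcat OE 3 (adjusted p = 0.0739; 2.50e-09 to 0.0739 over the alternatives). The liver factor gene cebpb fell by 0.66 on the log2 scale (adjusted p = 0.00511) and nupr1, a small stress-induced chromatin protein gene, by 0.71 (0.00191) and cebpg, a dimer partner of ATF4, by 0.65 (0.0207); the cebpg call was lost without CTL 1, CTL 2, lcat OE 1 or lcat OE 2 (0.00625 to 0.0717). The member that rose was atf5b, from 30.4 ± 2.0 to 43.6 ± 1.97 CPM (0.52, SE 0.11, adjusted p = 0.00455), a call lost on log2(TPM + 1) and log2(TPM + 0.1) (0.00105 to 0.0621). Its paralog atf5a had 1.22 and 0.543 CPM (-1.14, adjusted p = 0.061, 0.0334 to 0.393 over the alternatives). It passed on TPM, on FPKM and without lcat OE 1. The pseudokinase gene trib3 had 85.8 ± 6.24 and 65.1 ± 20.9 CPM (-0.40, adjusted p = 0.177, 0.00566 to 0.393). It passed with library totals, on TPM, without lcat OE 3 and without both CTL 1 and lcat OE 3. On log2(TPM + 1) 7 of the 8 partners were lower, where 21.5% of all genes tested were.

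Of 27 tested genes listed as ATF4 targets of amino acid supply and stress, 5 were higher and 3 lower, with a median of -0.07. Whether ATF4 acts on each of them, tnfrsf1a among them, was not tested. The proline synthesis genes aldh18a1 and pycr1b rose by log2 fold changes of 0.79 (SE 0.13, edgeR adjusted p = 0.00152) and 0.67 (SE 0.17, 0.0114). The gene slc3a2b, the heavy chain of amino acid transporters, rose from 14.7 ± 0.443 to 24.3 ± 3.94 CPM (SD, n = 3 each; 0.72, SE 0.13, adjusted p = 0.00238), and the receptor gene tnfrsf1a rose by 0.73 (0.0134). The amino acid transporter gene slc38a2 fell from 10.6 ± 1.45 to 4.06 ± 2.31 CPM (-1.39, SE 0.41, adjusted p = 0.0415). The serine synthesis gene phgdh fell from 2.79 to 1.36 CPM (-1.03, adjusted p = 0.0107) and the cysteine synthesis gene cth from 369 ± 45.6 to 235 ± 48.7 CPM (-0.65, adjusted p = 0.00931). The call of pycr1b was lost on TPM or FPKM, without CTL 2 and without both CTL 1 and lcat OE 3 (0.00157 to 0.0858), and that of tnfrsf1a on TPM or FPKM (0.0019 to 0.101). That of phgdh was lost without CTL 3 (0.00776 to 0.05). That of slc38a2 was lost with no filter, without CTL 1, CTL 2, CTL 3 or lcat OE 3, and without both CTL 1 and lcat OE 3 (0.000676 to 0.239). On log2(TPM + 1), 2 of these 27 were higher and 5 lower, against 9.53% and 21.5% of all genes tested. Without CTL 2 the higher count was 3, and without CTL 2 and CTL 3 in turn the lower count was 2 and 1.

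Of 20 cytosolic tRNA synthetase genes, many of them ATF4 targets in mammals, 1 was higher and 1 lower (median -0.02). The gene tars1 (tars in the table) rose from 26.3 ± 1.84 to 38.6 ± 4.46 CPM (SD, n = 3 each; 0.56, SE 0.12, edgeR adjusted p = 0.00614), a call lost on TPM or FPKM (0.00164 to 0.131). The gene iars1 (iars) fell from 67.6 ± 2.43 to 54.8 ± 2.1 CPM (-0.30, SE 0.10, adjusted p = 0.0443), and its call was lost with no filter, the replicate block, DESeq2, any single library left out, or both CTL 1 and lcat OE 3 left out (0.0147 to 0.145 over 17 alternatives). Without lcat OE 1 and lcat OE 3 in turn, 2 and 3 of these genes were higher, and the count of lower genes was 0 without any single library other than lcat OE 3.

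Of 32 tested genes of IRE1 and ER-associated degradation, 2 were higher and 6 lower (median -0.11), and those with the largest changes were lower. The gene herpud1, an ER membrane protein that recruits degradation factors, had 46.4, 77.8 and 93.5 CPM in CTL and 26.4, 26.5 and 32.5 CPM in lcat OE (-1.35, SE 0.24, n = 3 each, edgeR adjusted p = 0.00457). Its groups did not overlap, and CTL 1 was again the lowest CTL library. The gene edem3, which trims mannose from misfolded glycoproteins, fell from 43.2 ± 5.99 to 20.3 ± 1.77 CPM (-1.09, SE 0.13, adjusted p = 0.000195), and the ubiquitin ligase gene syvn1 fell by 0.63 on the log2 scale (0.00758). The BiP cochaperone gene dnajb9b, a target of XBP1 in mammals, fell from 15.7 ± 6.39 to 6.79 ± 0.898 CPM (-1.21, SE 0.30, adjusted p = 0.0189). Its call was lost with no filter and without lcat OE 1, lcat OE 2 or lcat OE 3 (0.00022 to 0.0921). The translocon-associated gene serp1 rose by 0.56 (adjusted p = 0.011) and the mannosidase gene man1b1b by 0.58 (0.0303); the latter call was lost with library totals, on TPM or FPKM, and without CTL 2, CTL 3, lcat OE 1 or lcat OE 2 (0.0186 to 0.177), and that of serp1 on TPM (0.00194 to 0.0984). The higher count was 1 without any of these 4 libraries and 4 without lcat OE 3. The IRE1 gene ern1 had 4.38 ± 0.272 and 3.68 ± 0.566 CPM (-0.25, 95% interval -0.66 to 0.16, adjusted p = 0.33).

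Of 31 tested genes in the list of ATF6 control and ER folding, 6 were higher and 2 lower (median -0.09). Those higher include ppiab (0.31, edgeR adjusted p = 0.048), which encodes the cytosolic cyclophilin A and not an ER protein. The gene mbtps1, the site-1 protease that makes the first cut in ATF6 and also in SREBP, fell from 28.2 ± 0.718 to 16.1 ± 1.63 CPM (SD, n = 3 each; -0.81, SE 0.12, edgeR adjusted p = 0.00053). The site-2 protease gene mbtps2 (-0.26, 95% interval -0.56 to 0.05) and atf6b (-0.36, -0.67 to -0.04, adjusted p = 0.0825) did not pass, though atf6b did with library totals, on TPM, without lcat OE 3 and without both CTL 1 and lcat OE 3 (0.0213 to 0.277 over the alternatives). The gene canx, the lectin chaperone calnexin, had 132, 133 and 138 CPM in CTL and 246, 323 and 208 CPM in lcat OE (0.95, SE 0.15, adjusted p = 0.00104). All 3 lcat OE libraries were above every CTL library. The proline isomerase gene ppib rose from 167 ± 23.4 to 290 ± 44.3 CPM (0.79, adjusted p = 0.00206) and cnpy2 from 1.63 to 3.36 CPM (1.04, 0.00994), the latter not without lcat OE 2. The calnexin partner gene pdia3 rose by 0.43 (adjusted p = 0.0308), a call lost with library totals, the replicate block, TPM or FPKM, and without CTL 1, CTL 2, CTL 3 or lcat OE 2 (0.01 to 0.284). The gene listed as zgc:77086, pdia7 by RefSeq, fell by 0.32 (adjusted p = 0.0495), and its call was lost in 12 of 17 alternatives, any single library left out among them (0.0195 to 0.17). The higher count was 2 without lcat OE 2, 3 without CTL 2 or CTL 3, 4 without CTL 1 and 10 without lcat OE 3, and the lower count was 1 without CTL 1, CTL 2, CTL 3 or lcat OE 1.

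**Figure D4:**
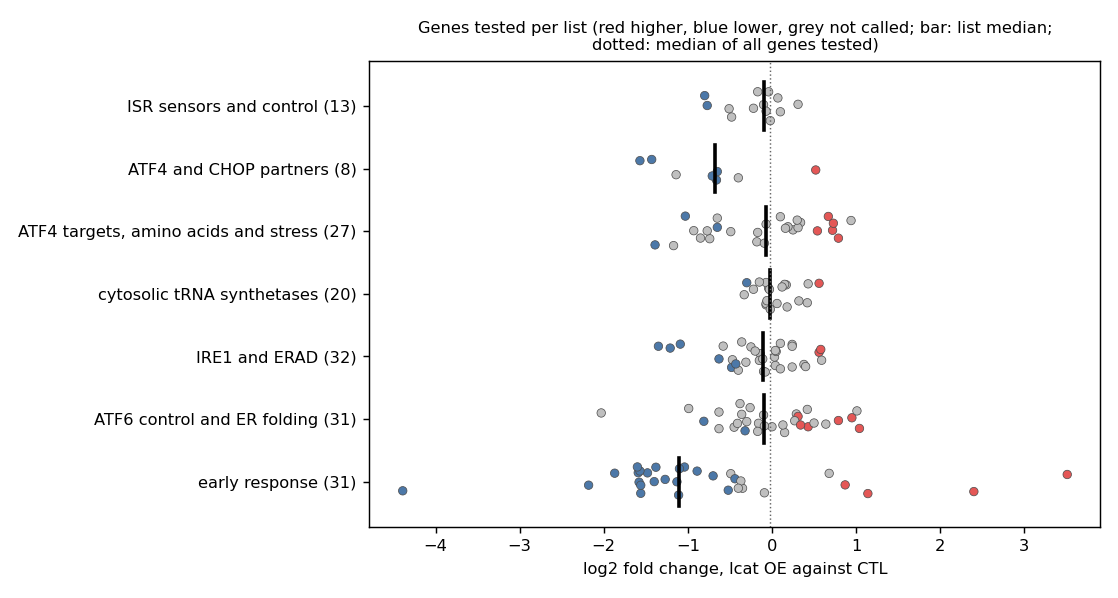
Log2 fold change of lcat OE against CTL of the tested genes in the 6 pathway lists and of 31 early response genes (points, spread vertically for legibility; red higher, blue lower, grey not called). The number tested stands beside each list name, black bars are list medians and the dotted line is the median of all genes tested; the medians of the ATF4 and CHOP partners (-0.68) and of the early response genes (-1.10) lie to its left.

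Genes of the early response, which many kinds of stimulus and cell handling induce, also differed between the groups. Of 31 tested, 4 were higher and 21 lower (median -1.10), against 16.3% and 16.3% of all genes tested. Their share of counts was 0.831% to 0.933% in CTL and 0.385% to 0.45% in lcat OE. The gene fosab had 3116, 3180 and 3219 CPM in CTL and 1441, 1327 and 1847 CPM in lcat OE, and egr1 had 531, 560 and 559 CPM in CTL and 246, 231 and 287 CPM in lcat OE. For both genes the groups were far apart. The 4 that rose were klf2b, from 3.33 ± 1.55 to 38.1 ± 10.7 CPM (SD, n = 3 each; 3.51, SE 0.37, edgeR adjusted p = 0.000858), klf4 (2.40, 0.000613), klf2a (1.14, 0.0059) and dusp5 (0.87, 0.0293). The dusp5 call was lost with library totals, no filter, TPM or FPKM, without CTL 1, CTL 3, lcat OE 1 or lcat OE 2, and without both CTL 1 and lcat OE 3 (0.00174 to 0.107). The genes fosab, egr1 and those that rose were named after their values were seen. The part of this difference, and of the epidermal and pancreas markers, in the values of the stress response genes was not tested.

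The profiles most like those of the stress genes were sought among 3825 other named genes with a mean of at least 10 CPM, by the mean absolute difference of centred log2 CPM over the 6 libraries. For atf4a the nearest were slco2a1 (0.04), ugt5b1 (0.047) and srrt (0.05). For xbp1 they were dyrk1aa (0.069), agpat2 (0.075) and ubc (0.078). The nearest genes to hspa5 were farther from it, with ahsa1b at 0.163, edrf1 at 0.179 and col1a2 at 0.19. This measure is not scaled by the spread of a profile. The SD of log2 CPM in CTL was 0.75 for hspa5, 0.22 for atf4a and 0.21 for xbp1, so the distances of the 3 genes cannot be compared directly.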

How the data were processed

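RNA sequencing of 6 samples was analysed, with groups and replicate numbers from the sample titles. Per the submitters' processing notes, HISAT, Bowtie2 2.3.4.3, RSEM 1.3.1, DESeq2 1.4.5 and the build GRCz11 were used; which step each served is not given in the sources used here. Per gene and library, the authors deposited expected counts, TPM and FPKM. A further deposited signal, rounded counts divided by 1 factor per library, was not used.

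After rounding, the expected counts entered edgeR 4.0.16 (R 4.3.3) with filterByExpr, TMM factors and a robust two-sided quasi-likelihood test of group, with no covariate and a threshold of 0.05. The SE was taken from the F value, as the size of the log2 change over its root. Alternatives were RLE factors, library totals, other filters, a replicate block, DESeq2 1.42.0, limma 3.58.1 on log2 TPM (pseudocounts 1 and 0.1) and log2(FPKM + 1), offsets for the transcript length implied by counts and TPM, and leaving out each library. A fit without CTL 1 and lcat OE 3 was chosen after seeing the data. The edgeR fit was tested on simulated data with the same dispersion for all genes. Such data do not have the spread of these libraries, so the calls do not rest on that run.

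The 10 genes and all lists were chosen with earlier results of these data known. Named from the lists were a fixed set of sensors and regulators and, per list, up to 4 genes past the threshold in each direction with the largest changes and at least 1 CPM in the higher group; other names were chosen after their values were seen. List names were matched by symbol or RefSeq name. Where RefSeq assembly GRCz12tu shows overlapping genes, the labels state no strand-specific step and reads cannot be told apart: rabepk overlaps hspa5 (72 counts in CTL and 59 in lcat OE in all) and glt8d2 overlaps hsp90b1 (10 and 17). Sequences of the genes were not used here. Replicates differed beyond sampling noise in every pair, with a chi-square of 11.6 to 37.3 per degree of freedom.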

Additional observations from a re-analysis of the deposited data

How the results depend on the processing

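The calls of atf4a, atf4b, ddit3, chac1 and xbp1 held their direction and passed the threshold in all 17 alternatives. No alternative called hsp90b1 or pdia4. The log2 fold change of pdia4 turned to 0.01 with RLE factors or no filter, 0.00 with DESeq2 or length offsets and 0.07 without CTL 1 and lcat OE 3. With single libraries left out, hsp90b1 ranged from -0.62 to 0.10, pdia4 from -0.60 to 0.31, eif2ak2 from -0.56 to 0.06 and eif2ak4 from -0.15 to 0.07. Without CTL 1 and lcat OE 3, eif2ak2 turned to 0.16 and eif2ak4 to 0.08. None of these reversed values was called, and the cause was not tested.

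Of the called genes, 49.9% were higher with TMM, 38.8% with library totals, 40.1% on log2(FPKM + 1) and 30.8% on TPM with either pseudocount, and the median of all genes moved from -0.02 to -0.18 on log2(TPM + 0.1). With pseudocounts of 1 and 0.1 on TPM, 1344 and 1367 of all genes were higher, and 1335 were higher and 1369 lower with at least 5 CPM in 3 libraries, where fewer genes were tested. With library totals, TPM or FPKM, 1 of the 10 genes was higher. On TPM with either pseudocount, the sensors had 4 lower, the partners 0 higher, the ATF4 targets 2 higher and 5 lower, the synthetases 0 higher and 2 lower, the IRE1 list 0 higher and the ATF6 list 3 higher; the ATF6 list had 4 lower on log2(TPM + 0.1). With library totals, 4 sensors and 2 synthetases were lower and 1 gene of the IRE1 list and 3 of the ATF6 list were higher. On log2(FPKM + 1), 2 ATF4 targets, 0 synthetases and 1 gene of the IRE1 list were higher and 2 synthetases lower. With no filter, 1 sensor, 0 synthetases and 1 gene of the ATF6 list were lower and 2 synthetases higher. DESeq2 called 5 ATF4 targets and 0 synthetases lower, and 0 synthetases were lower without CTL 1 and lcat OE 3. With RLE factors or length offsets 1 gene of the ATF6 list was lower. Over all genes tested, the main fit gave 2293 higher and 2303 lower. Library totals gave 1672 and 2639, log2(FPKM + 1) 1661 and 2483, and DESeq2 2194 and 2182. RLE factors gave 2350 and 2267, length offsets 2316 and 2261, and no filter 2487 and 2514 of 23712 genes. Without CTL 1 and lcat OE 3, they were 2180 and 2127. On TPM, 3024 and 3068 were lower with pseudocounts of 1 and 0.1.

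Same-numbered libraries did not deviate together: their deviations correlated at -0.0466, -0.0294 and 0.0163, and 1 of 6 samples correlated best with its own number. With so few libraries, these values cannot show whether same-numbered samples shared a clutch or sort. With the replicate block, 2040 genes were higher and 2152 lower, 2 of the 10 genes were higher and 4 lower, 0 synthetases were lower and 1 gene of the ATF6 list was lower.

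Leaving out each library in turn gave 1 to 3 higher among the 10 genes, and hspa5 was also called lower without CTL 1. Among the lists there were 1 to 2 lower sensors and 3 to 5 higher and 1 to 4 lower ATF4 targets. The synthetases had 1 to 3 higher and 0 to 1 lower, the IRE1 list 1 to 4 higher, and the ATF6 list 2 to 10 higher and 1 to 3 lower. Over all genes these fits gave 1773 to 2441 higher and 1740 to 2253 lower. With 3 libraries a group, intervals as wide as those of hsp90b1 and pdia4 limit what can be said of them.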
